A study of Mus musculus with 2 samples.

Results

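The core loop of the circadian clock was examined in 2 messenger RNA libraries of mouse lung, through 8 genes taken by symbol: the activators Arntl, Clock and Npas2 and the repressors Cry1, Cry2, Per1, Per2 and Per3. All 8 were found among the 37315 gene identifiers of the count tables, and all 8 had a mean of at least 1 CPM (counts scaled to a common library size), as did 14518 genes in total. There was 1 library from C57BL/6 mice, a common inbred strain, exposed to PM2.5 (fine airborne particles), and 1 library from control mice of the same strain. The 12W in the sample titles is not explained. The labels state neither dose, route, sex, age nor how many animals stand behind a library, and they give no time of day for the collection of tissue. A difference in collection time therefore cannot be told apart from the exposure.

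The clock runs as a negative feedback loop of transcription. ARNTL, also called BMAL1, pairs with CLOCK or with its relative NPAS2, and the pair binds E-box sequences and switches on the Per and Cry genes. The PER and CRY proteins then block that pair and so their own transcription. In a second loop the REV-ERB proteins, made from Nr1d1 and Nr1d2, repress Arntl, while the ROR proteins drive it through the same DNA element, and the PAR-bZIP factors such as DBP act through D-box sequences. In lung, as in most organs, levels of these messenger RNAs swing over the day, with Arntl roughly opposite in phase to Per and Rev-erb genes.

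Matches to the DNA elements of these loops are shown for 4 members. Sequences are those around RefSeq transcription starts on GRCm38.p6 (the assembly also called mm10), written 5′ to 3′ on the strand of the gene, with position 1 at the start. Of the 8 members, 7 matched the promoter table, in 11 windows of 300 bases (250 before the start), and Per2 was not searched. Capitals mark the searched letters: the ROR element in Arntl (any base was allowed at its positions 3 and 9), the E-box CACGTG in Cry1 and Per1, and the D-box TTANGTAA in Per3, each searched on both strands with the windows in view.
Arntl, bases -19 to 11, chr7:113207492-113207521, plus strand: attggtcggaAAGTAGGTTAgtggtgcgac
Arntl, bases 18 to 47, chr7:113207528-113207557, plus strand: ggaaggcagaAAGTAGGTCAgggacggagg
Cry1, the 250 bases before the start, chr10:85185055-85185304, minus strand: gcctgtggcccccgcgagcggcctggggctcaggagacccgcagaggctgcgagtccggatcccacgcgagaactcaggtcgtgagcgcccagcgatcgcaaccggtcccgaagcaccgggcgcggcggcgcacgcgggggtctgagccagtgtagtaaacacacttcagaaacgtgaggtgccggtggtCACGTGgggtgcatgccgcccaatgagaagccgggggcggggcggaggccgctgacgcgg
Per1, the 250 bases before a start, chr11:69098699-69098948, plus strand: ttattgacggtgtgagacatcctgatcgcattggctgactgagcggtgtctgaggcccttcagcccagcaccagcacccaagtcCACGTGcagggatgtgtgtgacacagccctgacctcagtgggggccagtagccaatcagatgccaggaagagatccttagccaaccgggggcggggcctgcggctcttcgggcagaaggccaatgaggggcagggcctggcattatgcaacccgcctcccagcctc
Per3, the 250 bases before the start, chr4:151044666-151044915, minus strand: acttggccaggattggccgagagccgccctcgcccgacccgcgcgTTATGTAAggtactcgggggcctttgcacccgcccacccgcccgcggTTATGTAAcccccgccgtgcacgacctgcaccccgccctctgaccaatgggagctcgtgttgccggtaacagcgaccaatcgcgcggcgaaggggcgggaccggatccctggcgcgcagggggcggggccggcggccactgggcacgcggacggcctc
Of the 7 members searched, Arntl alone had the ROR element in a window, and it held the element at -9 and again at 28. That element was in the windows of 0.803% of 27025 genes. The E-box lay at -60 in Cry1 and -166 in Per1, and 8.09% of genes had one. The D-box lay at -205 and -158 in Per3, and 2.72% of genes had one. The related letters CACGTT were in the windows of Cry1 at -79 and Cry2 at -166, on the strand opposite the gene, and 5.44% of genes had them. These matches describe the letters of the windows and do not show binding.

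The PM2.5 library had lower levels of all 3 activators and of Cry1, and higher levels of Per2 and Per3. Npas2 was 6.51-fold, Arntl 2.92-fold, Cry1 2.72-fold and Clock 1.72-fold lower, whereas Per3 was 2.75-fold and Per2 1.60-fold higher. Per1 was 1.62-fold lower, and Cry2 was the member with the smallest difference. The repressors thus did not move as 1 group: 2 were higher, 2 were lower, and Cry2 differed by less than the size used for a call.

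Libraries were scaled by TMM, a trimmed mean of the ratios of all genes. Calls of higher or lower needed a 1.5-fold ratio of CPM and an exact 95% counting interval (Clopper-Pearson) on that side of equality. By this rule 7 of 8 members differed, against 34.0% of the 14518 genes tested. Of the members, 5 were lower, against 19.1% of genes, and 2 were higher, against 14.9%. At 2-fold, 4 of 8 members differed, against 13.3% of genes: Npas2, Arntl and Cry1 were lower, as were 6.04% of genes, and Per3 was higher, as were 7.25%. With 1 library per group there is no replicate check: the intervals cover counting error only, reads are not independent molecules, and no p-value can be given. All values compare these 2 libraries, not the conditions.

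**Figure D1:**
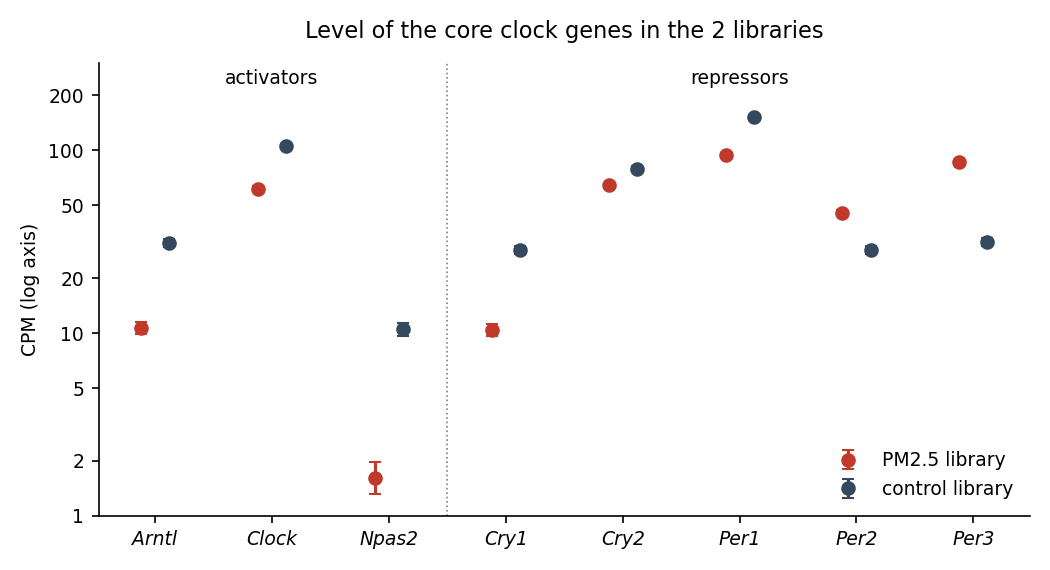
Level of each member in CPM on a log axis, in the PM2.5 library (left point) and the control library (right point), with exact 95% Poisson intervals for counting error. Arntl, Clock, Npas2, Cry1, Cry2 and Per1 lie lower in the PM2.5 library, and Per2 and Per3 lie higher.

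Arntl (ENSMUSG00000055116, GRCm38 chromosome 7, 113207465 to 113314126, plus strand) encodes the shared partner of CLOCK and NPAS2, needed for daily rhythm in mice. It had 662 counts (10.6 CPM) in the PM2.5 library and 1803 counts (31.1 CPM) in the control library. The log2 ratio, PM2.5 over control, was -1.55 (95% counting interval -1.68 to -1.42). Only 1.41% of genes tested had a ratio as low or lower. Arntl kept its call under each of the 5 other scalings of the libraries, with log2 ratios of -1.56 to -1.32.

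Npas2 (ENSMUSG00000026077, chromosome 1, 39193731 to 39363236, plus strand) encodes the CLOCK relative that can stand in for it. It was the scarcest member, with 100 counts (1.61 CPM) in the PM2.5 library and 607 counts (10.5 CPM) in the control library. Its log2 ratio of -2.70 (-3.02 to -2.40) was the lowest of the members, and 35 of the 14518 genes had a ratio as low or lower. Because the PM2.5 value rests on 100 counts, its interval of 5.26-fold to 8.13-fold lower was the widest of the members.

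Clock (ENSMUSG00000029238, chromosome 5, 76209868 to 76304792, minus strand) encodes the main partner of ARNTL. It had 3826 counts (61.5 CPM) in the PM2.5 library and 6134 counts (105.8 CPM) in the control library, a log2 ratio of -0.78 (-0.84 to -0.72). It was lower, but by less than either other activator, and 11.0% of genes tested had a ratio as low or lower. Its call was lost with library totals, at -0.55, and with the trend on transcript length removed, at -0.49. Clock has the longest exons of the members, 13.7 kb in all.

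Cry1 (ENSMUSG00000020038, chromosome 10, 85131700 to 85185064, minus strand) encodes the cryptochrome known as the strongest repressor of the ARNTL pair. It had 649 counts (10.4 CPM) in the PM2.5 library and 1646 counts (28.4 CPM) in the control library. The log2 ratio was -1.44 (-1.58 to -1.31), on the side of the activators. Set against Arntl within each library, Cry1 stood at 0.980 counts per Arntl count in the PM2.5 library and 0.913 in the control library. The ratio of these ratios was 1.07 (exact conditional 95% interval 0.944 to 1.22), an interval that includes equality.

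Cry2 (ENSMUSG00000068742, chromosome 2, 92403646 to 92434043, minus strand) encodes the other cryptochrome. It had 4003 counts (64.4 CPM) in the PM2.5 library and 4603 counts (79.4 CPM) in the control library, a log2 ratio of -0.30 (-0.36 to -0.24). It was 1.23-fold lower and met neither size. Of genes tested, 35.7% had a ratio as low or lower. The gene shares 295 exonic bases with D930015M05Rik on the opposite strand, which had 124 counts in the PM2.5 library and 8 in the control library. The kit keeps strand, but the strand setting of the counting is not given in the sources used here.

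Per1 (ENSMUSG00000020893, chromosome 11, 69095217 to 69109960, plus strand) encodes the period protein whose gene also answers quickly to glucocorticoid and cyclic AMP signals. It had the most counts of the members in both libraries, with 5854 counts (94.1 CPM) under PM2.5 and 8859 counts (152.8 CPM) in the control. The log2 ratio was -0.70 (-0.75 to -0.65), and 14.0% of genes tested had a ratio as low or lower. Its call was lost with library totals, at -0.47, and with the upper quartile, at -0.56.

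Per2 (ENSMUSG00000055866, chromosome 1, 91415982 to 91459324, minus strand) encodes the period protein at the centre of the repressor complex. It had 2831 counts (45.5 CPM) in the PM2.5 library and 1646 counts (28.4 CPM) in the control library. The log2 ratio was 0.68 (0.59 to 0.77), and 12.4% of genes tested had a ratio as high or higher. Per2 was called higher under each of the 5 other scalings, at 0.67 to 0.91.

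Per3 (ENSMUSG00000028957, chromosome 4, 151003652 to 151044665, minus strand) encodes the third period protein, which is not needed to keep the loop running. It had 5399 counts (86.8 CPM) in the PM2.5 library and 1828 counts (31.5 CPM) in the control library. The log2 ratio was 1.46 (1.38 to 1.54), the highest of the members, and 3.92% of genes tested had a ratio as high or higher. Over the other scalings the log2 ratio was 1.45 to 1.69, and with the length trend removed Per3 was called higher too.

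**Figure D2:**
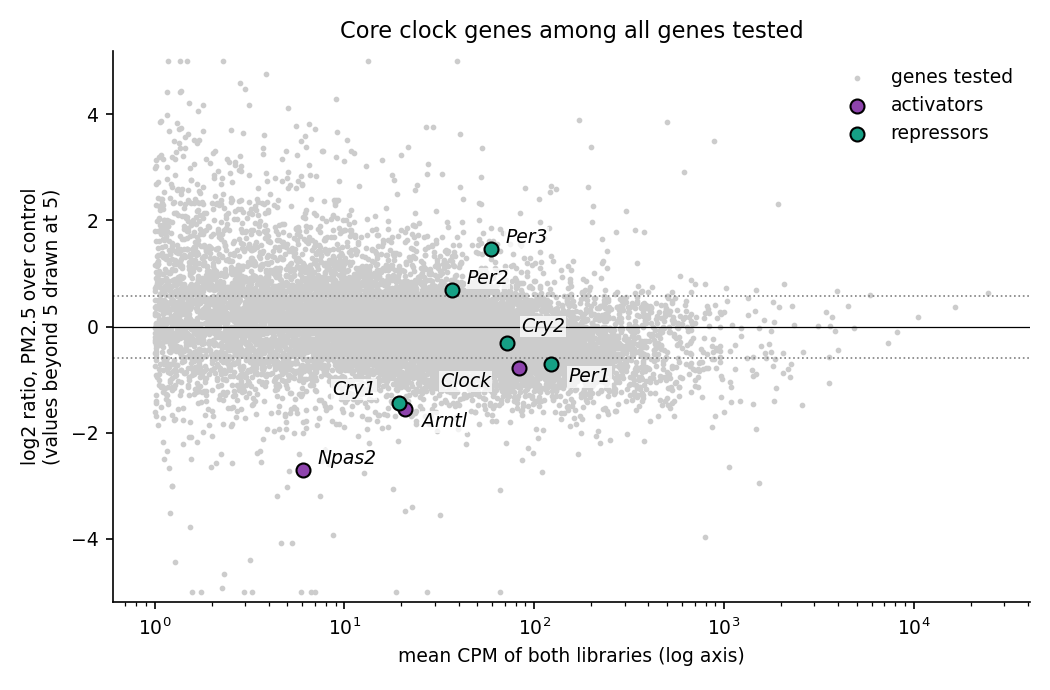
Log2 ratio, PM2.5 over control, against mean CPM on a log axis, for all 14518 genes tested (grey) and the 8 members (purple activators, green repressors). Dotted lines mark 1.5-fold, and Npas2 at -2.70 and Per3 at 1.46 are the lowest and highest of the members.

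Activators and repressors were then set against each other, first by a difference that does not depend on how the libraries are scaled. The median log2 ratio was -1.55 over the 3 activators and -0.30 over the 5 repressors, against -0.09 over all genes tested. The activator median minus the repressor median was -1.24. The medians are those of Arntl and Cry2, and the counting interval of the difference between these genes was -1.39 to -1.10. The roles overlapped, since the ratio of Cry1 lay between those of Arntl and Clock. Leaving out 1 member at a time gave differences of -1.82 to -0.86.

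The summed repressor counts were 18736 in the PM2.5 library and 18582 in the control library, and the summed activator counts were 4588 in the PM2.5 library and 8544 in the control library. There were 4.08 repressor counts for each activator count in the PM2.5 library and 2.17 in the control library, a 1.88-fold higher balance (1.80 to 1.96). Without Clock and Per1, the members with most counts of each role, the balance was 4.19-fold higher (3.84 to 4.57). The summed CPM of the repressors was 301 in the PM2.5 library and 321 in the control library, and that of the activators was 73.8 in the PM2.5 library and 147 in the control library. The ratio of these sums was 0.501 (0.483 to 0.519) for the activators and 0.940 (0.921 to 0.959) for the repressors, so the balance differed mainly through the activators.

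Within the repressors, the period genes contributed in other proportions while their sum differed little under TMM. The summed CPM of the 3 Per genes was 226 in the PM2.5 library and 213 in the control library, a ratio of 1.06 (1.04 to 1.09). Its log2 value was 0.09, to which library totals add 0.23, so the size of this difference depends on the scaling. The proportions do not. Per1 made up 41.6% of their counts in the PM2.5 library (95% exact binomial interval 40.7 to 42.4) and 71.8% in the control library (71.0 to 72.6). Per3 made up 38.3% (37.5 to 39.1) under PM2.5 and 14.8% (14.2 to 15.5) in the control. The ratio of Per3 to Per1 was 4.47-fold higher in the PM2.5 library (4.20 to 4.76), and that of Per2 to Per1 was 2.60-fold higher (2.43 to 2.79).

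The cryptochromes and the CLOCK paralogs shifted too. The summed CPM of Cry1 and Cry2 was 74.8 in the PM2.5 library and 108 in the control library. Cry1 took 14.0% of the Cry counts under PM2.5 (13.0 to 15.0) and 26.3% in the control (25.3 to 27.5). Clock took 97.5% of the counts of Clock and Npas2 under PM2.5 and 91.0% in the control, and the ratio of Npas2 to Clock was 3.79-fold lower in the PM2.5 library. The ratio of summed Per to summed Cry counts was 1.53-fold higher in the PM2.5 library (1.47 to 1.61).

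**Figure D3:**
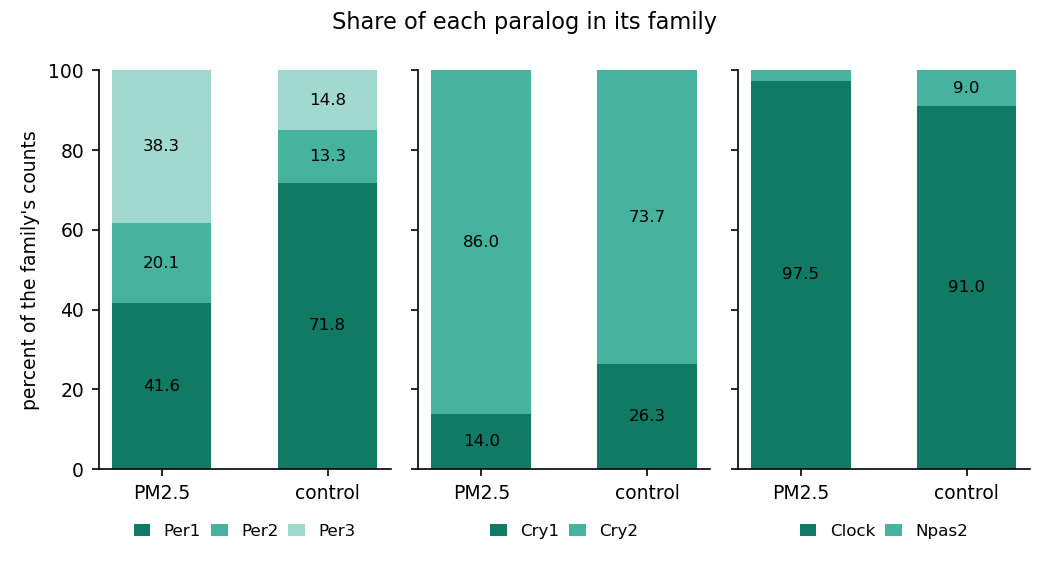
Percent of the counts of each family taken by its genes, in the PM2.5 library (left bar) and the control library (right bar) of each panel. Per3 takes 38.3% of the Per counts under PM2.5 and 14.8% in the control, and Cry1 takes 14.0% of the Cry counts under PM2.5 and 26.3% in the control.

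The widest separation between members was that of Per3 and Npas2, and among pairs with Arntl that of Per3. There were 8.16 Per3 counts for each Arntl count in the PM2.5 library and 1.01 in the control library, a ratio of ratios of 8.04 (7.24 to 8.94). For Per2 to Arntl it was 4.68 (4.20 to 5.23), for Cry2 to Arntl 2.37 (2.14 to 2.62) and for Per1 to Arntl 1.80 (1.64 to 1.98). All repressors except Cry1 thus gained on Arntl beyond counting error, but so did the activator Clock, at 1.70 (1.54 to 1.88). Arntl is a low reference, since 98.6% of genes tested had a ratio as high as its own or higher.

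To compare levels between genes, CPM was divided by the kilobases of exon that the annotation gives each gene. On this scale the order in the PM2.5 library was Per1 (16.7), Cry2 (10.2), Per3 (9.03), Per2 (7.77), Clock (4.48), Cry1 (3.12), Arntl (1.41) and Npas2 (0.336 CPM per kilobase). In the control library it was Per1 (27.1), Cry2 (12.6), Cry1 (8.50), Clock (7.71), Per2 (4.85), Arntl (4.13), Per3 (3.28) and Npas2 (2.19 CPM per kilobase). Per1 and Cry2 led and Npas2 came last in both. Per3 ranked 3 of 8 in the PM2.5 library and 7 of 8 in the control library, and Cry1 ranked 6 and 3. The highest member stood 49.8 times above the lowest in the PM2.5 library and 12.4 times in the control library. No spread between animals is known, so neighbours in these orders are not distinguished, and the exon length counts every annotated isoform.

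Of 3 genes of the second loop described here, the REV-ERB genes Nr1d1 and Nr1d2 were higher and the ROR gene Rora was lower. By the same rule 14.9% of all genes tested were higher and 19.1% lower. Nr1d1 had 9352 counts (150.3 CPM) in the PM2.5 library and 5331 counts (92.0 CPM) in the control library, a ratio of 1.64 (1.58 to 1.69). Nr1d2 had 10122 counts (163 CPM) under PM2.5 and 5244 counts (90.5 CPM) in the control, a ratio of 1.80 (1.74 to 1.86). Rora, whose protein competes with the REV-ERB proteins, had 3005 counts (48.3 CPM) under PM2.5 and 4545 counts (78.4 CPM) in the control and was 1.62-fold lower (1.55 to 1.70). Its call was lost with library totals, the upper quartile and the length trend removed. Its relative Rorb had 5 counts in the PM2.5 library and 22 in the control library and had a mean under 1 CPM.

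Among the 4 PAR-bZIP and D-box factors, 1 was higher and 1 lower, with a median of 0.18. The shares over all genes tested were 14.9% higher and 19.1% lower. Dbp, an activator at D-boxes and a direct target of the ARNTL pair, had 7788 counts (125 CPM) under PM2.5 and 2978 counts (51.4 CPM) in the control, a ratio of 2.44 (2.34 to 2.54). Nfil3, the repressor that competes at D-boxes, had 360 counts (5.79 CPM) under PM2.5 and 944 counts (16.3 CPM) in the control and was 2.81-fold lower (2.49 to 3.19). The ratio of Nfil3 to Arntl counts differed little between the libraries, with a ratio of ratios of 1.04 (0.890 to 1.21). Tef, the most abundant of the others, was 1.24-fold higher and met neither size.

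Of 6 other feedback factors, Ciart, Bhlhe41 and Arntl2 were called higher and none lower, against 14.9% and 19.1% of all genes. Ciart, a repressor of the ARNTL pair, had 971 counts (15.6 CPM) under PM2.5 and 173 counts (2.98 CPM) in the control, a ratio of 5.23 (4.45 to 6.19). Bhlhe41, an E-box repressor also called DEC2, was 2.15-fold higher (1.99 to 2.33). Its relative Bhlhe40 had a ratio of 1.4977, just short of the size, and was called higher with library totals, the upper quartile, TMM on protein-coding genes and the length trend removed. Arntl2, a paralog of Arntl, rested on 179 counts under PM2.5 and 9 in the control, a ratio of 18.5 (9.55 to 41.2), and passed the filter through the PM2.5 library alone. Without Arntl2, 2 of 5 were higher, and the median log2 ratio was that of Bhlhe40, 0.58.

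**Figure D4:**
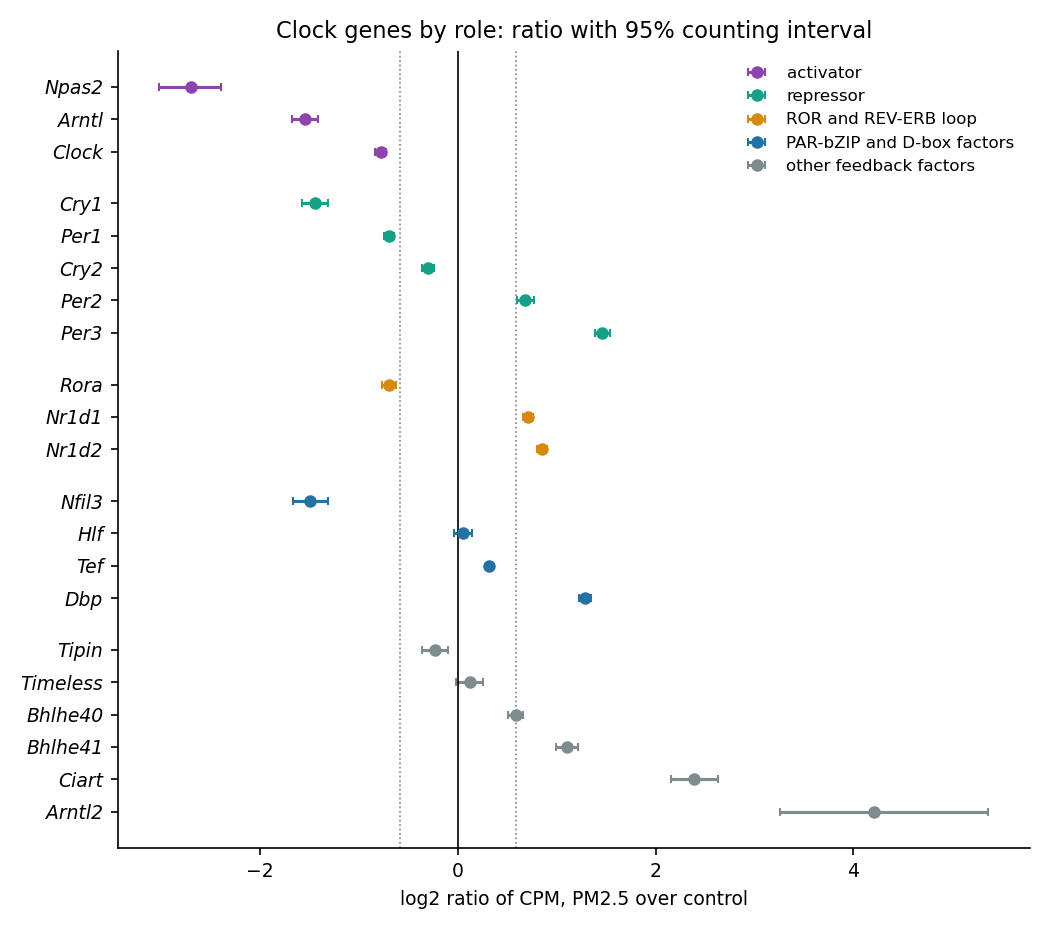
Log2 ratio of CPM, PM2.5 over control, with 95% counting intervals for the members and genes of 3 other clock lists, coloured by role. Dotted lines mark 1.5-fold. Npas2, Arntl, Cry1 and Nfil3 lie between -2.70 and -1.44, and Dbp, Per3, Ciart and Arntl2 lie at 1.29 or above.

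Of 10 genes for enzymes that modify clock proteins (kinases, ubiquitin ligases and a deubiquitinase), 2 were lower and none higher, with a median of -0.24, where 19.1% of all genes were lower. Gsk3b and Csnk1d, kinases that phosphorylate clock proteins, were 1.67-fold and 1.60-fold lower. Usp7, the most abundant of the other 8, had a log2 ratio of -0.14. With library totals none of the 10 was called, and the median was -0.01. With DESeq2 size factors, TMM without the 100 most abundant genes or thinning, 3 were lower. The upper quartile or removal of the length trend left 1 lower. Of 8 coregulators, 3 were lower and none higher, where 19.1% of all genes were lower and 14.9% higher. Their median of -0.20 was 0.03 with library totals. The acetyltransferase genes Ep300 and Crebbp were 1.83-fold and 1.61-fold lower and the corepressor gene Ncor1 1.60-fold. Ep300 alone remained called with library totals, and none did with the length trend removed. Nono, the most abundant of the other genes, had a log2 ratio of -0.14.

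Per1 was set beside a list of its inducers and of genes induced with it. Of these 10 genes, 4 were lower and 1 higher, against 19.1% and 14.9% of all genes, with a median of -0.52. The glucocorticoid targets Zbtb16, Sgk1 and Fkbp5 were 3.57-fold, 2.42-fold and 2.06-fold lower. The immediate early gene Fos was 2.02-fold higher (1.91 to 2.14). The fourth lower gene was Klf9 at 1.79-fold, which is named outside the rule, after its value was seen. The receptor gene Nr3c1 had a log2 ratio of -0.46 and met neither size. The rest of the list, named outside the rule, met neither size: Creb1 at -0.11, Crem at 0.33, Sik1 at -0.57 and Nr4a1 at 0.12. Of 7 genes rhythmic in many organs, 1 was lower and none higher, against the same shares of all genes, with a median of -0.13. The lower one, Tsc22d3, also a glucocorticoid target, had 13243 counts under PM2.5 and 26152 in the control and was 2.12-fold lower (2.07 to 2.16). Por, the most abundant of the others, had a log2 ratio of -0.28. Tspan4 was called higher with library totals and the upper quartile, where its log2 ratio was up to 0.70.

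The libraries held 57435027 counts (PM2.5) and 62788045 counts (control). The lung was recognisable in both: 13 markers of its epithelium and endothelium summed to 58225 CPM under PM2.5 and 45825 CPM in the control. Scgb1a1 (29906 CPM under PM2.5, 19383 CPM in the control) and Sftpc (18643 and 14437 CPM) held most of each sum. The median log2 ratio of the 13 was -0.02, with 2 called higher and 3 lower. The higher ones were both secretoglobin genes of airway epithelium, and the 3 lower ones were all the endothelial markers of the list, among them Cdh5 (3.05-fold lower) and Kdr (2.59-fold lower). Markers of other cells moved beside the clock genes. For all marker lists, the shares over all genes tested were 14.9% higher and 19.1% lower. All 8 neutrophil markers were higher, with a sum of 1617 CPM under PM2.5 and 489 CPM in the control. All 10 adipocyte markers were higher, with a sum of 783 CPM under PM2.5 and 125 CPM in the control. Of 4 B cell markers, 3 were higher and none lower. Of 6 red blood cell markers, 5 were lower and 1 higher, with a sum of 2462 CPM under PM2.5 and 5276 CPM in the control. The higher one was Hba-a2 at 3.14-fold, a near-identical copy of the lower Hba-a1, so that the split of reads between them is uncertain. Of 6 fibroblast markers, 4 were lower and 2 higher (Dcn 2.68-fold and Lum 2.70-fold), with a sum of 1012 CPM under PM2.5 and 2167 CPM in the control. Of 6 cardiac markers, 3 were higher and 1 lower, with a sum of 304 CPM under PM2.5 and 320 CPM in the control. Of 6 alveolar macrophage markers, Marco was higher (3.57-fold) and Mrc1 lower, with a sum of 809 CPM under PM2.5 and 767 CPM in the control. Of 5 T cell markers, Cd8a was higher (1.73-fold) and none lower, with a sum of 47.8 CPM under PM2.5 and 47.6 CPM in the control. No marker of these lists was at 0 in either library. The part of these shifts in the clock gene values was not tested, and in whole tissue fewer cells of a type and less RNA per cell cannot be told apart.

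**Figure D5:**
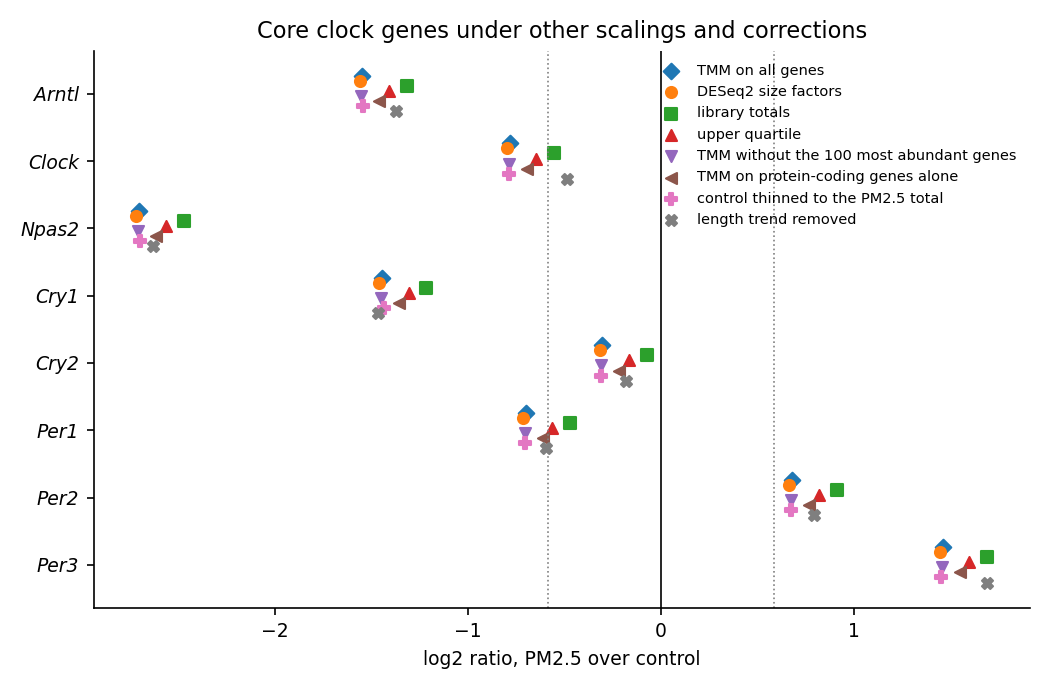
Log2 ratio of each member, PM2.5 over control, under the scaling used in the text and 7 alternatives (symbols). Dotted lines mark 1.5-fold. No member changes sign, and Clock and Per1 each cross the dotted line in 2 alternatives.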

How the data were processed

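RNA was sequenced from lung of C57BL/6 mice, 1 PM2.5 and 1 control library. Per the labels' protocols, polyadenylated RNA was made into stranded KAPA libraries and read in paired mode on a HiSeq2500. The authors deposited raw counts per Ensembl gene, without normalization. TopHat2 2.1.1, HTSeq 0.6.0 and mm10 are named in the submitters' processing notes. Neither annotation nor strand setting is given in the sources used here.

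Symbols, positions and exon lengths came from GENCODE M21 (GRCm38), which matched 35533 of 37315 identifiers. Libraries were scaled by TMM (edgeR 4.0.16), and CPM, ratios and exact 95% intervals were computed with Python 3.11.15 and scipy 1.17.1. A mean of 1 CPM over both libraries was the filter. With 1 library per group no edgeR or DESeq2 model can be fitted. The rule names all members, and of each other list up to 4 genes with the largest called ratio and the most abundant uncalled one. The members and lists were chosen with earlier results of these data known. Promoter windows came from RefSeq on GRCm38.p6. Steps were tested on simulated data. Alternatives were 5 scalings (among them DESeq2 1.42.0 size factors), filters, sizes, thinning and removal of the length trend (lowess, statsmodels 0.14.6). Some results are not reported here.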

Additional observations from a re-analysis of the deposited data

How the results depend on the processing

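No member changed sign in 56 values, 8 members under 7 alternatives. These were 5 scalings, thinning of the control library, and removal of the length trend. Of the 56 values, 4 changed a call. Each scaling moved all log2 ratios by the same amount, 0.23 at most, and Cry2, the member with the smallest difference, had -0.30. The scalings therefore could not have changed the sign of any member. This does not cover the summed repressors, whose log2 ratio of -0.09 lies above equality with library totals and the upper quartile. Library totals and the upper quartile raised all log2 ratios by 0.23 and 0.14, which moved the share of higher among called genes to 70.6% and 59.7%, against 43.8%. It was 54.0% with TMM on protein-coding genes. The count of members called was 5 with library totals, 6 with the upper quartile and 6 with the length trend removed, against 7, and it was 4 at 2-fold. The shares of all genes tested that were called were 33.7%, 32.7% and 30.9%, against 34.0%, and 13.3% at 2-fold. The count of all genes called was 4939 of 14518, and 1930 of these at 2-fold. It was 7575 of 24315 (31.2%) with no filter and 3062 of 10421 (29.4%) at a mean of at least 10 CPM.

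The activator minus repressor median of -1.24 was -0.91 from summed CPM and -1.62 from means. It was -1.44 without Arntl, -1.82 without Clock, -0.86 without Npas2, -1.74 without Cry1 or without Per1, -1.54 without Cry2, and -1.05 without Per2 or without Per3. The balance of repressor to activator counts, 1.88, was 4.19 without Clock and Per1. The other alternatives for that median gave -1.24 to -1.19. No paired analysis was possible because each group has 1 library, and for the same reason no library could be left out. Npas2 under PM2.5, at 100 counts, is the value that depth limits most.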

Other observations

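The promoter windows of the partner genes held some of the same letters. Ciart had the E-box CACGTG at -116, -58 and -44, and Bhlhe41 had it at -153. Tef had it at -127 and -138 in overlapping windows, each numbered from its own start, so these need not be separate sites. Nr1d1 had CACGTT at -28 on the opposite strand. The windows of Clock and Npas2 held none of the 5 searched motifs, the fifth being the cyclic AMP element TGACGTCA, which 2.03% of genes had and none of the 7 members with a window did. Of these clock genes with the E-box, Ciart and Bhlhe41 were higher in the PM2.5 library, Tef met neither size at 1.24-fold, and Cry1 and Per1 were lower. The presence of these letters and the direction of the ratio were not tested against each other.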
